A study of Drosophila melanogaster with 72 samples.

Results

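The 10 genes described here encode the proteins that fill and coat the egg of Drosophila melanogaster: the yolk proteins Yp1, Yp2 and Yp3, the vitelline membrane protein Vm26Aa, and the chorion proteins Cp36, Cp38, Cp18, Cp15, Cp19 and Cp16. They were chosen by gene symbol, and they are 10 of the 16680 genes listed for every library. Total RNA of whole embryos and larvae was sequenced in 72 libraries that form 36 groups of 2 in 6 experiments. Most of these concern IntS11 or IntS9, subunits of the Integrator complex, which cleaves nascent RNA; one used alpha-amanitin, and one compared larvae. The labels do not say whether the 2 replicates of a group came from separate collections, so p-values measure only the spread between these libraries, which may be technical.

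In the IntS11 mislocalization experiment, WT embryos were compared with mutant embryos in which IntS11 was mislocalized, at 0 to 0.5 h, 1 to 1.5 h and 2.5 to 3 h. The IntS9 experiment had the same layout with IntS9 mislocalized. The knockdown experiment compared IntS11 KD embryos with WT embryos over the same 3 windows. The amanitin experiment compared embryos given alpha-amanitin, a toxin that blocks RNA polymerase II, with control embryos at 1 to 1.5 h and 2.5 to 3 h. The rescue experiment held, at these 2 windows, WT embryos, embryos with mislocalized IntS11, and embryos labelled as rescued with Flag-tagged IntS11, either WT or carrying the change E203Q. The larval experiment compared WT larvae with larvae labelled zygotic mutant at 24, 48 and 72 h after egg laying (AEL). The labels give neither the gene mutated in these larvae, nor the drivers of the transgenes, nor the sex of the animals.

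Yolk proteins are made in the fat body and the ovarian follicle cells of adult females and taken up by the growing oocyte through the receptor Yolkless. They are related to lipases rather than to the vitellogenins of other animals. Vitelline membrane proteins and then chorion proteins are secreted by the same follicle cells as the egg matures, and the chorion gene clusters are amplified there to meet the demand. Embryos and larvae have no follicle cells.

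In dm6 coordinates, Yp1 lies at X:10053811-10055498 on the plus strand and Yp2 at X:10050951-10052636 on the minus strand, so that the pair is divergently transcribed with 1174 bases between them. Yp3 lies apart at X:13759546-13761547. Cp18, Cp15, Cp19 and Cp16 sit head to tail within 5809 bases of 3L, and Cp36 and Cp38 within 3993 bases of X. Vm26Aa lies on 2L. The annotation places asRNA:CR45601 opposite Yp1 and CG33223 opposite Cp36 and Cp38; the sources do not state whether counting used strand, so reads of these 3 genes and of their antisense partners may not be separated. In the 10 libraries with at least 100 reads of the 10 genes, the counts of CR45601 came to between 1.21% and 4.61% of those of Yp1.

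Total counts ran from 2061575 to 26074431 per library, lowest in the WT libraries of the knockdown experiment. IntS11 itself stood at 20.96 ± 1.10 (SD, n = 2) CPM in WT larvae at 24 h AEL and 6.77 ± 0.017 in the mutant larvae, and at 84.3 ± 3.98 CPM in WT and 5.87 ± 0.235 in KD embryos at 0 to 0.5 h. In the rescue experiment it ranged from 1945 to 2483 CPM in the Flag libraries and from 122.6 to 186.3 in the others. CPM are counts per megacount, relative to a library total adjusted by TMM, a factor that aligns the bulk of genes between libraries, computed within each experiment, so levels in different experiments are scaled separately.

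Ordered by the summed level of the 10 genes, 3 larval groups came first. The 24 h WT larvae had 1760 and 1665 CPM in their 2 libraries, the 24 h mutant larvae 1119 and 1235, and the 48 h mutant larvae 840 and 636. These 3 groups did not overlap. Next came one embryo group, the mislocalized IntS11 embryos of the rescue experiment at 2.5 to 3 h, with 67.6 and 71.0 CPM, and then the 48 h WT larvae with 20.7 and 20.6 CPM. Every one of the other 31 groups had a mean under 10 CPM, and many of these neighbours in the order overlapped. In whole animals, fewer cells with an RNA and less of it per cell cannot be told apart.

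**Figure D1:**
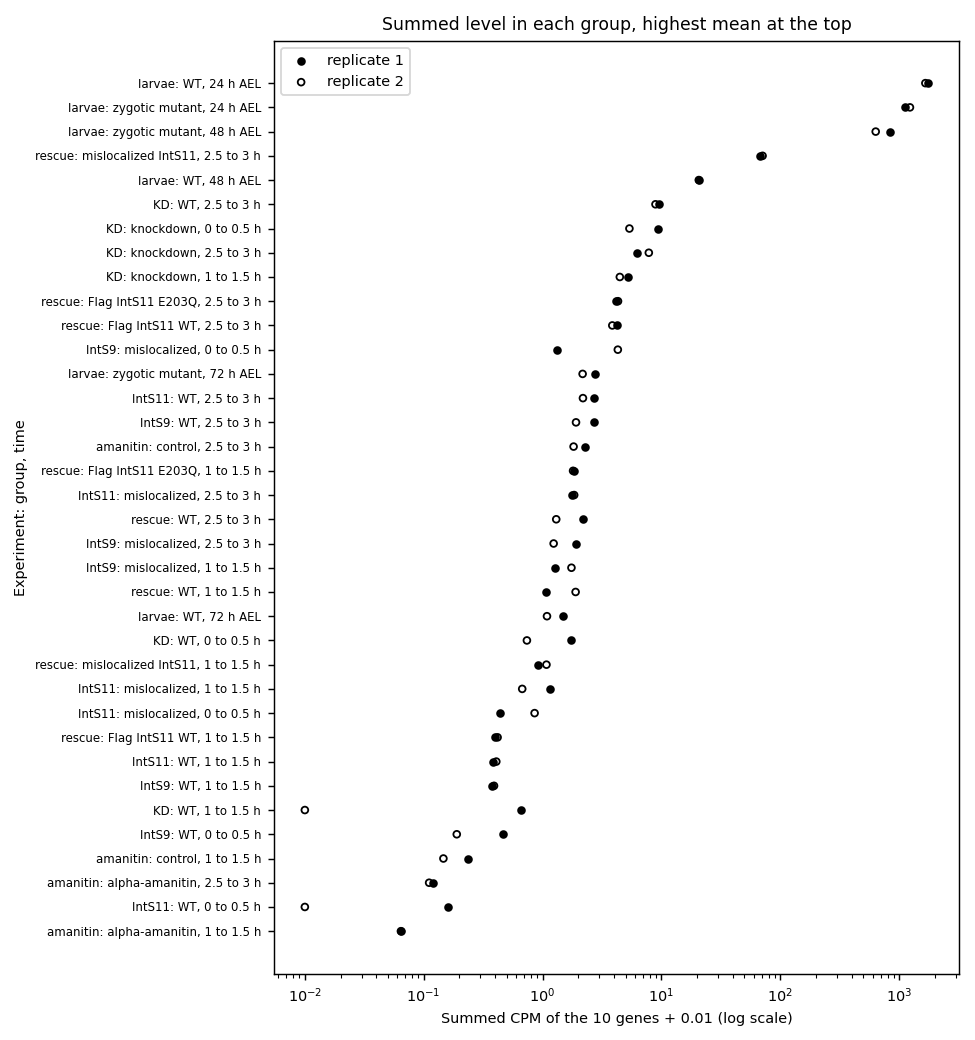
Summed CPM of the 10 genes plus 0.01 (log scale) in each of the 36 groups, ordered by mean, with 1 point for each library. The 24 h larvae of both genotypes and the 48 h mutant larvae lie above 600 CPM, and the mislocalized IntS11 embryos of the rescue experiment stand between them and the remaining embryo groups.

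All 10 RNAs were plentiful in newly hatched WT larvae and fell steeply by 48 h AEL. On the deposited TPM scale, which is per length and allows genes to be compared, Cp15, a late chorion protein, led at 24 h with 1195 ± 12.2 TPM (SD, n = 2). The other chorion RNAs followed, Cp19 with 231 ± 2.61, Cp36 with 181 ± 3.08, Cp18 with 171 ± 2.66, Cp38 with 156 ± 3.90 and Cp16 with 90.5 ± 3.20 TPM. Vm26Aa, a structural protein of the vitelline membrane, had 136 ± 4.28 TPM. The yolk protein RNAs were lower per length, with 109 ± 4.48 TPM for Yp2, 88.1 ± 1.68 for Yp1 and 42.6 ± 2.99 for Yp3. Cp15 alone made up 50.1% and 49.5% of the summed TPM of the 10 genes in the 2 libraries, and the yolk proteins together 9.69% and 10.3%.

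In the WT libraries Cp15 went from 503 and 467 CPM at 24 h AEL to 1.29 and 1.61 at 48 h. Yp1 went from 170 and 164 CPM to 2.47 and 2.39, and Yp3 from 74.6 and 77.2 to 2.53 and 2.33. The 24 h and 48 h libraries did not overlap for any of the 10 genes. The share of all genes without overlap was not computed, here or below, so such counts are description only. By edgeR's quasi-likelihood test, with p-values adjusted by Benjamini and Hochberg's method over the 11409 genes tested, all 10 fell, where 36.2% of all genes were called lower. By that test Cp15 fell by 8.39 ± 0.12 (SE) on the log2 scale, 334.5-fold (adjusted p = 1.92e-21). Yp3 fell by 4.96 ± 0.16 (31.1-fold, adjusted p = 1.73e-13) and Vm26Aa by 5.08 ± 0.16 (33.8-fold, adjusted p = 2.12e-11). The log2 changes of the other 7 ran from -5.78 ± 0.16 for Yp2 to -6.996 ± 0.19 for Cp19. Scaling by total counts moved the share of higher calls among all calls from 47.6% to 33.7% here, and all 10 genes were called lower under it too.

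From 48 to 72 h AEL the 10 RNAs fell again in WT larvae, where 23.3% of all genes were called lower. Yp3 was the best preserved, with 20 and 12 counts left at 72 h, and fell by 1.58 ± 0.32 on the log2 scale (2.99-fold, adjusted p = 0.00069). Cp15 was down to 5 counts over both 72 h libraries (10.8-fold) and Cp18 to 7 (8.94-fold). Cp16, Cp19, Cp36 and Vm26Aa had no counts at 72 h.

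**Figure D2:**
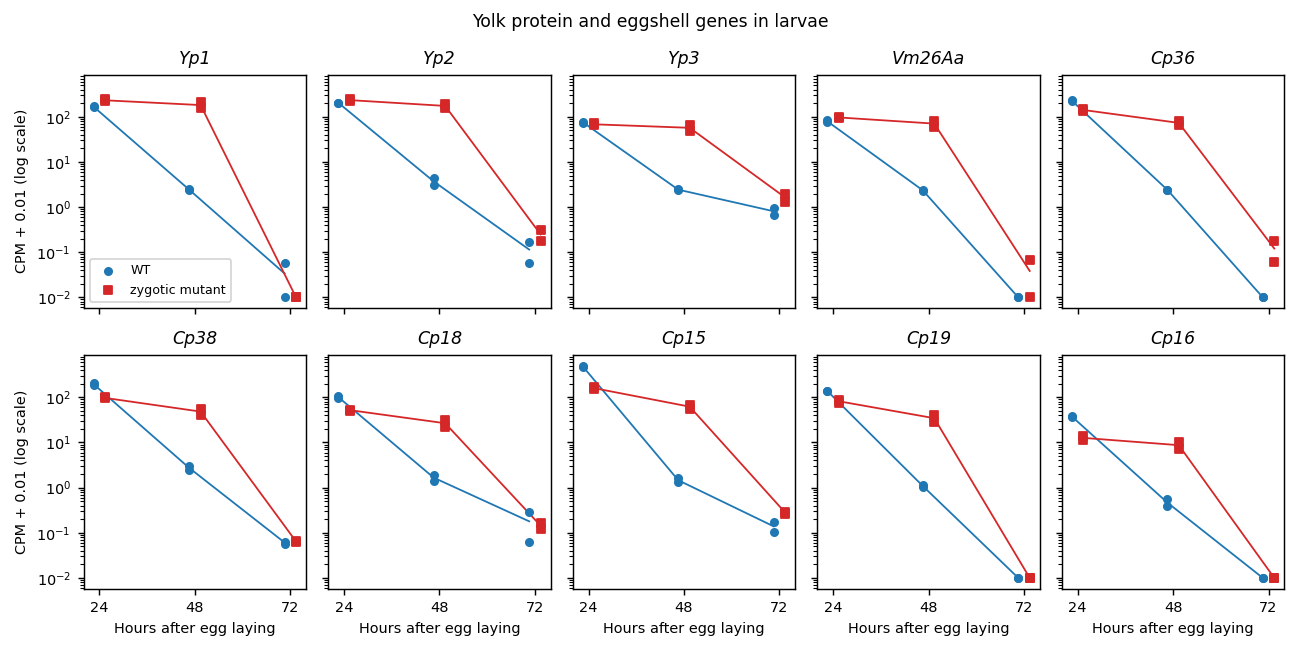
CPM plus 0.01 (log scale) of each of the 10 genes in WT (circles) and zygotic mutant (squares) larvae at 24, 48 and 72 h AEL, with 1 point per library and lines through the means. At 48 h the mutant points lie above the WT points in every panel (Yp1 210 and 154 against 2.47 and 2.39 CPM); at 72 h no library exceeds 1.94 CPM of any of the genes.

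The zygotic mutant larvae carried the same RNAs at 24 h AEL, with less chorion RNA and no called change in yolk protein or vitelline membrane RNA. All 6 chorion genes were lower in mutant than in WT larvae, against 4.42% of all genes called lower. Cp15 had 153 and 166 CPM in the mutant libraries against 503 and 467 in WT, a 3.04-fold difference (log2 change -1.61 ± 0.07, adjusted p = 6.90e-12). Cp16, in the same 3L cluster but separated from Cp15 by Cp19, had 11.4 and 13.9 CPM against 37.8 and 37.4 (-1.61 ± 0.12, adjusted p = 4.55e-08). These were the largest changes among the 10 genes at this time, and no mutant library overlapped a WT one.

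The other chorion genes differed by less. Cp38 had 94.96 and 99.3 CPM in the mutant libraries against 205 and 185 (-1.01 ± 0.09, adjusted p = 1.34e-06), and Cp18 had 51.1 and 53.2 against 105.9 and 97.3 (-0.97 ± 0.10, adjusted p = 1.23e-05). Cp19 had 75.0 and 89.0 CPM against 141 and 135 (-0.76 ± 0.11, adjusted p = 0.0023), and Cp36 had 134 and 149.5 against 232 and 222 (-0.68 ± 0.07, adjusted p = 6.39e-06). The call for Cp19 was lost without WT replicate 1 (adjusted p = 0.067). Groups did not overlap for any of the 4.

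For Yp1 the 24 h mutant libraries had 221 and 244 CPM and the WT libraries 170 and 164, a log2 change of 0.47 ± 0.13 that was not called (adjusted p = 0.064) although the libraries did not overlap. DESeq2 called it (adjusted p = 0.0011), as did the fit to the 24 h libraries alone and scaling by total counts (adjusted p = 0.046). Yp2 had 221 and 248 CPM against 206 and 205 (0.19 ± 0.11, adjusted p = 0.41). Yp3 had 65.0 and 71.6 CPM against 74.6 and 77.2 (-0.16 ± 0.10, adjusted p = 0.43). Vm26Aa had 93.1 and 100.6 CPM against 83.7 and 75.2 (0.28 ± 0.11, adjusted p = 0.15). The make-up of the pool differed accordingly: Cp15 held 30.7% and 30.3% of the summed TPM in the mutant libraries, and the yolk proteins 22.0% and 22.2%.

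By 48 h AEL the genotypes had parted. All 10 RNAs were higher in mutant than in WT larvae, against 16% of all genes called higher. The mutant libraries had 210 and 154 CPM of Yp1, and the WT libraries 2.47 and 2.39, a 74.9-fold difference (log2 change 6.23 ± 0.20, adjusted p = 3.91e-07). Yp2 had 195 and 154 CPM against 4.35 and 3.04, 46.8-fold (5.55 ± 0.17, adjusted p = 7.19e-09). Yp3 had 66.3 and 47.8 CPM against 2.53 and 2.33, 23.6-fold (4.56 ± 0.17, adjusted p = 2.92e-11). For each yolk protein gene both mutant libraries were far above both WT libraries.

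Vm26Aa had 81.7 and 59.8 CPM in the 48 h mutant libraries against 2.42 and 2.27 in WT, 30.2-fold (4.92 ± 0.18, adjusted p = 8.23e-10). Cp15 had 68.7 and 55.6 CPM against 1.29 and 1.61, 43.0-fold (5.43 ± 0.13, adjusted p = 7.75e-17). Cp36 had 80.5 and 66.2 CPM against 2.42 and 2.39, and Cp38 had 56.2 and 40.5 against 2.42 and 3.04. These chorion genes were 30.5-fold and 17.9-fold higher in the mutant, with no overlap. In the 3L cluster Cp19 had 40.5 and 28.6 CPM against 1.02 and 1.13 (32.2-fold), Cp18 had 31.5 and 21.9 against 1.398 and 1.91 (16.4-fold), and Cp16 had 10.1 and 7.31 against 0.376 and 0.537 (19.1-fold). In every one of these genes mutant replicate 1 was above replicate 2.

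The difference between genotypes changed with time for all 10 genes. The mutant effect at 48 h minus that at 24 h, an interaction term chosen after the values were seen, ran from 4.64 ± 0.21 for Vm26Aa to 7.03 ± 0.15 for Cp15 on the log2 scale and was called for 10 of 10 (7.38% of all genes were called in that direction). In the mutant larvae the summed level of the 10 genes went from 1119 and 1235 CPM at 24 h to 840 and 636 at 48 h, while in WT larvae it went from 1760 and 1665 to 20.7 and 20.6. The make-up also moved. Yolk proteins held 30.7% and 30.5% of the summed TPM in the 48 h mutant libraries and Cp15 held 21.0% and 22.5%.

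**Figure D3:**
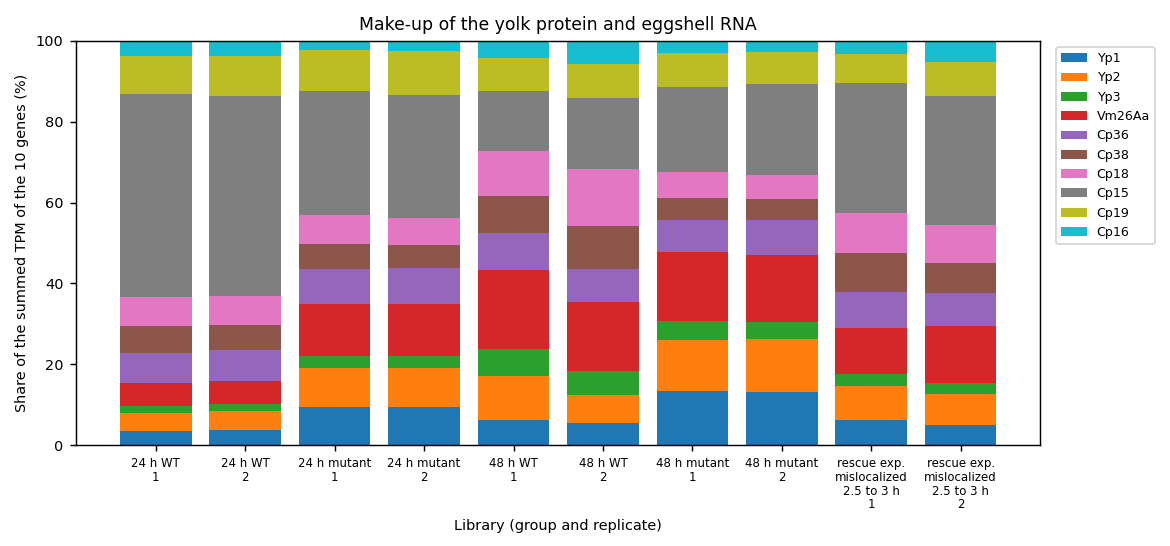
Share of the summed TPM of the 10 genes (%) that each gene holds, as stacked bars, in the 10 libraries with at least 100 reads of these genes. Cp15 holds 50.1% and 49.5% in 24 h WT larvae and 30.7% and 30.3% in 24 h mutant larvae; the 48 h WT bars rest on 385 and 346 reads.

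At 72 h AEL little was left in either genotype. Yp3 had 38 and 23 counts in the mutant libraries against 20 and 12 in WT, 2.02-fold (log2 change 1.015 ± 0.34, adjusted p = 0.020). Cp36 was also called, on 1 and 3 counts in the mutant libraries against none in WT, at least 1.42-fold over a floor of 3 counts in the WT group. These 2 calls stood against 26.6% of all genes called higher. DESeq2 called 1 of the 10 genes here. The call for Yp3 was lost without WT replicate 2 or mutant replicate 1 (adjusted p = 0.13 and 0.19), and that for Cp36 without WT replicate 1 or 2 or mutant replicate 2 (adjusted p = 0.13, 0.11 and 0.22). Each of the other 8 genes had at most 10 counts in each genotype. The mutant effect at 72 h was below that at 48 h for Yp2, Yp3, Cp15 and Cp18, 4 of 10 by an interaction term (20.9% of all genes were called in that direction).

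Other eggshell genes moved with the 10. Of 20 further genes of the vitelline membrane, chorion and their assembly, all tested, 20 fell from 24 to 48 h AEL in WT larvae and 20 were higher in the mutant at 48 h (36.2% and 16% of all genes were). The median log2 changes were -5.25 and 4.80, and those of all genes tested -0.03 and -0.001. At 24 h 4 of the 20 were higher and 8 lower in the mutant (633 and 504 of the 11409 genes tested were). The higher included Vm34Ca, a vitelline membrane protein, with 75.8 ± 8.37 CPM (SD, n = 2) in mutant and 52.5 ± 2.11 in WT larvae. Among the lower were the yellow family genes yellow-g, with 9.90 ± 0.56 and 20.3 ± 1.90 CPM, and yellow-g2, with 9.40 ± 0.23 and 17.7 ± 0.18, which act in eggshell cross-linking. dec-1, a chorion matrix protein, went from 90.7 ± 3.21 to 2.31 ± 0.31 CPM in WT larvae between 24 and 48 h (-5.29 ± 0.11, adjusted p = 2.62e-19).

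RNAs loaded by the female germline were measured beside them. All 6 maternal germline genes fell in WT larvae from 24 to 48 h (36.2% of all genes were called lower). At 48 h 4 were higher in the mutant (16% of all genes were). The gene oskar, which organizes the germ plasm, had 134 ± 1.94 CPM at 24 h in WT, 14.9 ± 0.857 at 48 h in WT and 55.0 ± 5.13 at 48 h in the mutant. At 24 h 5 of the 6 germline genes were lower in the mutant (4.42% of all genes were). The gene of the yolk receptor, yl, went from 177 ± 6.81 to 38.9 ± 1.63 CPM in WT. At 24 h it had 121 ± 4.14 CPM in the mutant (log2 change -0.55 ± 0.11, adjusted p = 0.0090). From 48 to 72 h in WT larvae 5 of the 6 germline genes were called higher (3185 of 11409 genes tested were), and all 10 yolk and eggshell genes lower (23.3% of all genes were).

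Of genes of yolk uptake and lipoproteins, 4 of 8 were higher and 1 lower in the mutant at 48 h AEL, with a median log2 change of 0.23. Among all 11409 genes tested at 48 h, 1826 were called higher and 1570 lower in the mutant. Rfabg, the precursor of the lipid carrier lipophorin, had 7926 ± 137 CPM in the mutant and 4819 ± 152 in WT. No call was made by edgeR at 24 or 48 h for 6 genes of the sex determination pathway, which acts on the yolk protein genes; their summed level lay between 77.7 and 107.7 CPM in these 8 libraries. Of 10 genes used to mark the follicle epithelium, 4 were higher and 1 lower in the mutant at 48 h, tj among the former with 4.19 ± 1.23 CPM against 1.58 ± 0.803. The 10 genes summed to between 439 and 475 CPM at 48 h over both genotypes.

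Markers of other sources were measured beside these RNAs. A list of 12 genes of adult tissues, among them the eye rhodopsin ninaE, flight muscle genes, spermathecal genes and male accessory gland genes, summed to between 1.26 and 3.64 CPM at 24 h, 0.215 and 0.239 in 48 h WT and 1.498 and 2.44 in 48 h mutant libraries; 4 of the 12 had no counts in either genotype at 24 h, and 5 had none in the 48 h mutant. Send1, a spermathecal protease gene, was called higher in the mutant at 24 h with 1.04 ± 0.144 CPM against 0.120 ± 0.169. Serum protein genes of the larval fat body were higher in the mutant at 48 h (4 of 4 tested, against 16% of all genes). Gut protease genes were lower (6 of 6, against 1570 of 11409 genes tested), with summed levels of 9947 and 11110 CPM against 15970 and 16050. The part of these RNAs in the yolk and eggshell results was not tested.

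In embryos the 10 RNAs were scarce. Leaving aside the mislocalized IntS11 group of the rescue experiment at 2.5 to 3 h, the 58 embryo libraries held between 0 and 78 reads of all 10 genes together, with a median of 19.5. Vm26Aa had no reads in 45 of them and at most 4, and Cp16 none in 48 and at most 3. Yp3 was the most often seen, absent from 8 libraries, with a median of 4 reads and a highest of 29. At such counts a filter on low values left few members in the tests: Cp18 and Yp1 in the IntS11 experiment, Cp18 and Yp3 in the IntS9 experiment, Yp3 in the amanitin experiment and Cp15 in the knockdown experiment. Some of these passed only through one group in which they were high: in the IntS11 experiment Yp1 through the mislocalized group at 2.5 to 3 h and Cp18 through WT of that age, in the IntS9 experiment Cp18 likewise through WT, and in the amanitin experiment Yp3 through the control group at 2.5 to 3 h. A call of such a gene against that group is therefore in part set by the filter. In the knockdown experiment Cp15 passed only with all 3 KD groups included. In the rescue experiment all 10 passed, Yp1, Yp2, Yp3 and Cp18 also with the 2 libraries described next left out, and the other 6 only through those libraries.

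The 2 libraries of the mislocalized IntS11 group of the rescue experiment at 2.5 to 3 h stood apart, with 1238 and 1305 reads of the 10 genes. Yp2 had 12.5 and 12.4 CPM there, Yp1 9.004 and 8.27, and Yp3 3.93 and 4.14. Cp15 had 10.2 and 11.1 CPM, and Vm26Aa and the other chorion genes between 1.09 and 9.44. WT embryos of that age had no reads of Cp16, Cp19, Cp36, Cp38 and Vm26Aa, 1 of Yp1, 1 of Yp2 and 2 of Cp15 over both libraries. All 10 were called higher than in WT, where 40.8% of all genes were called higher. The filter favours this outcome for the 6 genes that passed only through this group, so that the count is no support for them. Without any filter all 10 were called higher, and 28.7% of 13985 genes.

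The sizes given next are of genes with reads in both groups that passed the filter without this group, and then bounds. Yp3 had 72 and 76 reads against 14 and 9 in WT, 4.86-fold (log2 change 2.28 ± 0.29, adjusted p = 1.15e-07), and Cp18 had 82 and 89 against 12 and 9, 6.15-fold (2.62 ± 0.28, adjusted p = 7.05e-09). Against a floor of 3 reads over the WT group, Cp38 was at least 81.9-fold higher and Cp36 at least 81.1-fold. On the same floor Vm26Aa was at least 57.5-fold, Cp19 at least 35.6-fold and Cp16 at least 13.7-fold higher. All genes with such a bound passed the filter only through the mislocalized group. The bounds therefore describe how high that group was and are no further support. No mislocalized library overlapped a WT one for any of the 10 genes, which is description only, as the share of all genes was not computed.

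The same labelled condition did not show this elsewhere. At 1 to 1.5 h in the rescue experiment the mislocalized IntS11 libraries had between 0 and 8 reads of each gene, and none of the 10 was called against WT (53.4% of all genes were; edgeR, with none at an unadjusted p under 0.05 apart from Cp38, which had 1 read against 6; RLE and total-count scaling each called 1). At 2.5 to 3 h in the IntS11 experiment the mislocalized libraries had 17 and 15 reads of Yp1, 6 and 8 of Yp2 and at most 7 of any other. An interaction term, chosen after the late group was seen to stand apart, compared the mislocalization effect at 2.5 to 3 h with that at 1 to 1.5 h. It was called for 10 of 10 genes (29.9% of all genes were called in that direction), and for 6 without WT replicate 2 of the earlier window. That count restates how high the late group was. For the 4 genes that passed the filter without that group the effect was larger at 2.5 to 3 h by 7.67 ± 1.24 for Yp1, 8.83 ± 1.44 for Yp2, 3.05 ± 0.86 for Yp3 and 4.28 ± 1.36 for Cp18 on the log2 scale. The effect at 2.5 to 3 h exceeded that in the IntS11 experiment for 4 of 10 (21.1% of all genes). This contrast too was chosen after the late group was seen, so its count also restates how high that group was. On the log2 scale the differences were 6.65 ± 0.64 for Cp18, 5.22 ± 1.20 for Yp1 and 2.99 ± 0.66 for Yp3. For Cp15 it was 9.54 ± 3.53, a size that rests on 0 mislocalized reads and 1 WT read in the IntS11 experiment. DESeq2 called 8 of 10 in the latter contrast, and edgeR 2 without WT replicate 1 of the IntS11 experiment.

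In these 2 embryo libraries Cp15 held 32.2% and 31.9% of the summed TPM, Vm26Aa 11.5% and 14.2% and the yolk proteins 17.6% and 15.3%. There were 0.72 and 0.67 reads of Yp1 for each read of Yp2, against 0.83 and 0.80 in 24 h WT larvae and 1.00 and 0.98 in 24 h mutant larvae.

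Of the other 20 eggshell genes, 9 were below the filter and 11 were tested, 6 of which had passed only through the mislocalized group at 2.5 to 3 h. All 11 were called higher there than in WT (40.8% of all genes were), a count that the filter in part sets. Without the filter 15 of the 20 were called higher and 0 lower (28.7% and 28% of 13985 genes were). The 11 included dec-1, with 7.79 ± 1.296 CPM against 0.034 ± 0.048, Vm34Ca, with 4.09 ± 0.070 against none, and fs(1)N, whose RNA the mother loads into the egg, with 347 ± 4.01 against 28.4 ± 2.04. All 6 maternal germline genes were higher too, and all 6 early zygotic genes lower (3759 of the 9156 genes tested were called lower). The larval gut protease genes Jon99Ciii (2.15 ± 0.659 CPM against none) and betaTry (1.12 ± 0.118 against 0.034 ± 0.048) were called higher; the 6 gut genes summed to between 3.32 and 4.80 CPM in the mislocalized libraries and between 0.075 and 0.136 in WT. The 12 adult markers summed to between 1.04 and 1.14 CPM against 0.376 and 0.477, with 5 of the 12 at 0 reads. The part of these RNAs in the result was not tested. Several of these sums differed the same way at 2.5 to 3 h in the IntS11 and IntS9 experiments, respectively. The germline genes summed to 1128 CPM in mislocalized embryos against 132 in WT, and 1250 against 125. The early zygotic genes summed to 263 CPM against 3627, and 16.7 against 3575. The 20 other eggshell genes summed to 563 CPM against 84.3, and 513 against 72.2.

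**Figure D4:**
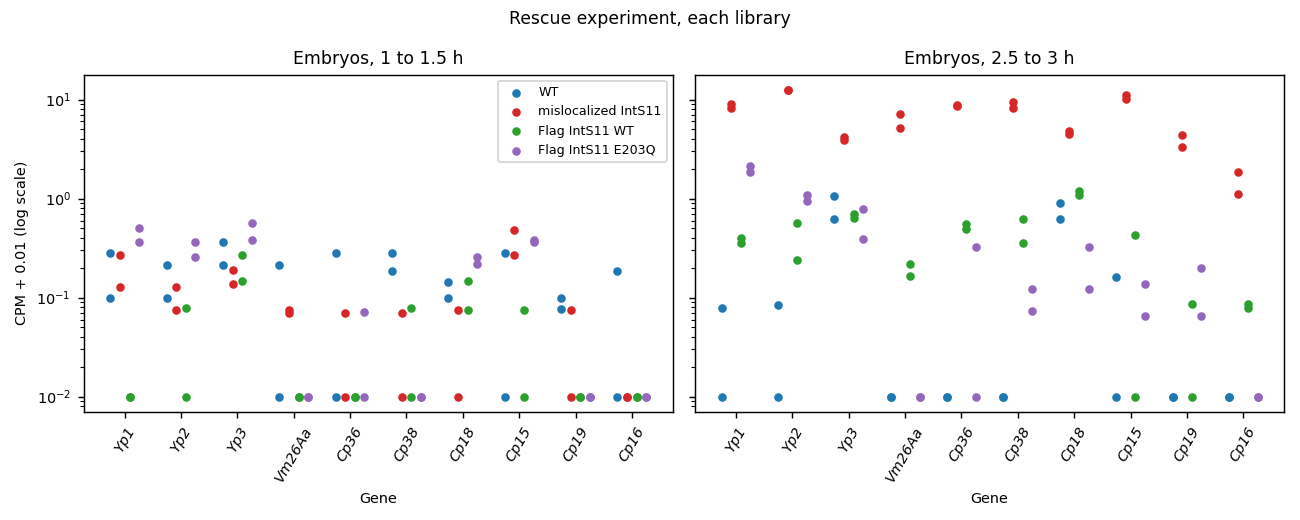
CPM plus 0.01 (log scale) of the 10 genes in each library of the rescue experiment at 1 to 1.5 h and 2.5 to 3 h, coloured by group. At 2.5 to 3 h both mislocalized IntS11 libraries lie above all other libraries for each gene; at 1 to 1.5 h no library exceeds 0.561 CPM of any gene.

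The rescued embryos were far lower than the mislocalized ones at 2.5 to 3 h. All 10 genes were called lower with Flag IntS11 WT (39.3% of all genes were) and all 10 with Flag IntS11 E203Q (28% were). These 2 comparisons and that with WT share the same mislocalized libraries, through which alone 6 of the 10 genes passed the filter, so that the counts are no further support. Yp2 fell to 8 and 3 reads with Flag IntS11 WT, 30.4-fold lower (log2 change -4.93 ± 0.27), and to 17 and 17 with E203Q, 12.3-fold lower (-3.61 ± 0.22). Cp36 had 14 reads over the Flag IntS11 WT libraries, 16.8-fold lower, and 5 over the E203Q libraries, 55.6-fold lower.

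Between the 2 rescue constructs at 2.5 to 3 h, 5 of the 10 genes were called, a smaller share than the 75.1% of all genes. Yp1 had 5 and 5 reads with Flag IntS11 WT and 38 and 29 with E203Q, 5.33-fold lower in the former (log2 change -2.42 ± 0.38, adjusted p = 5.31e-06). Yp2 was 2.48-fold lower with Flag IntS11 WT (-1.31 ± 0.44, adjusted p = 0.0093). Cp18 had 17 and 14 reads with Flag IntS11 WT and 2 and 5 with E203Q, 5.28-fold higher in the former (2.40 ± 0.49, adjusted p = 0.00011). Cp38, with 13 reads against 3, and Vm26Aa, with 5 against none, were also called higher. The libraries did not overlap for any of these 5. Vm26Aa was at least 2.05-fold higher. Yp3 (log2 change 0.15 ± 0.45, adjusted p = 0.78), Cp36, Cp15, Cp16 and Cp19 (-1.50 ± 1.35, adjusted p = 0.32) were not called. Without Flag IntS11 WT replicate 2 the calls for Yp2 and Cp38 were lost (adjusted p = 0.15 and 0.082) and 3 calls were made. A fit without the mislocalized group tested 4 of the 10 genes and called 3.

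At 1 to 1.5 h 3 genes were called lower with Flag IntS11 WT than with E203Q (19.4% of all genes were): Yp1, with no reads against 5 and 8, Yp2, with 1 read against 9 in all, and Cp15, with 1 against 11. DESeq2 called 1 of the 3. In a fit to these 2 groups alone no member passed the filter, so none was tested. Without E203Q replicate 1, 1 call was made. Against the mislocalized embryos at that window 1 of 10 was called with each construct (24.2% and 43.7% of all genes were), Yp1 with no reads against 6 for Flag IntS11 WT and Cp18 with 7 reads against 1 for E203Q. Both calls were lost in several alternatives.

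Among the eggshell genes, Cp18 had the most reads in the other 58 embryo libraries, 234 in all. At 2.5 to 3 h it was present in WT and control libraries of that age and had at most 2 reads in each of the mislocalized and treated libraries of 3 experiments that share no libraries. In the IntS11 experiment the WT libraries had 14 and 17 reads and the mislocalized libraries 1 and 1 (log2 change -4.38 ± 0.64, adjusted p = 2.05e-05). In the IntS9 experiment they had 23 and 12 against 2 and 1 (-3.43 ± 0.67, adjusted p = 9.41e-05). In these 2 experiments Cp18 passed the filter only through the WT group at 2.5 to 3 h, so both calls are in part set by the filter. Without it edgeR called both (adjusted p = 2.32e-06 and 1.28e-05). In the amanitin experiment the control libraries had 16 and 5 reads and the treated libraries none, at least 10.7-fold lower against a floor of 3 reads over the treated group. The gene was under the filter there, and without the filter it was called (adjusted p = 6.63e-06). The groups did not overlap in any of the 3.

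As background, 83.3% of all genes tested were called in the IntS11 comparison at 2.5 to 3 h, 83.4% in the IntS9 comparison and 89.7% in the amanitin comparison, so a call in itself is common at that age. The difference between the IntS9 and IntS11 effects was tested for Cp18, Yp1 and Yp3 at each window and called for none by edgeR or DESeq2, with none at an unadjusted p under 0.05 by edgeR (16.1%, 37.3% and 32.6% of all genes were called). In the rescue experiment at 2.5 to 3 h Cp18 went the opposite way under mislocalized IntS11, from 12 and 9 reads in WT to 82 and 89 (6.15-fold higher), in the group that stood apart. In the knockdown experiment Cp18 was under the filter, with 16 and 12 reads in the KD libraries and 1 and 6 in the much shallower WT ones. The means were 1.39 and 1.38 CPM.

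Cp18 also appeared between the earlier and the later window. WT embryos had no reads at 1 to 1.5 h in the IntS11 and IntS9 experiments, so that the 31 and 35 reads at 2.5 to 3 h were at least 12.6-fold and at least 12.2-fold higher, with adjusted p = 1.23e-05 and 5.86e-06 (81.1% and 81.4% of all genes were called). These 2 calls are in part set by the filter too, and without it edgeR made both (adjusted p = 1.17e-07 and 2.005e-08). In rescue WT embryos Cp18 went from 1 and 2 reads to 12 and 9 (log2 change 2.63 ± 0.65, adjusted p = 0.00074). At 2.5 to 3 h its neighbour Cp15 had 1 and 0 reads in IntS11 WT and 1 and 1 in IntS9 WT embryos, and Cp16 and Cp19 had none; control embryos had 3 and 4 reads of Cp15. No annotated gene overlaps Cp18 in the annotation used. Of the 10 genes, 2 were called higher and 1 lower between these windows in rescue WT embryos, a smaller share than among all genes (3947 and 3825 of the 9156 genes tested). Cp38 went there from 2 and 4 reads to none.

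Yp3 was called in the same direction as Cp18 in the amanitin experiment. Control embryos had 2 and 1 reads at 1 to 1.5 h and 10 and 8 at 2.5 to 3 h (2.85 ± 0.71, adjusted p = 0.0022, with 90.5% of all genes called), and treated embryos had 2 and 1 reads at the later window (log2 change against control -3.08 ± 0.70, adjusted p = 0.0011). Yp3 passed the filter there only through the control group at 2.5 to 3 h, so both calls are in part set by the filter. Without the filter edgeR made both (adjusted p = 0.0047 and 0.0019). At 1 to 1.5 h the treated embryos had no reads, which was not called (adjusted p = 0.11, unadjusted p = 0.047, with 33.5% of all genes called; DESeq2 made no call). In WT embryos of the rescue experiment it went from 4 and 3 to 14 and 9 reads, 3.01-fold (1.59 ± 0.54, adjusted p = 0.0095, with 84.9% called). In the IntS9 experiment the rise from 5 and 3 to 15 and 9 reads was not called (adjusted p = 0.070), nor was the difference between 15 and 9 reads in WT and 5 and 4 in mislocalized embryos (adjusted p = 0.11). Without the filter both were called (adjusted p = 0.017 and 0.036), and the rise was also called with RLE scaling or the replicate block. The call in the rescue WT embryos was lost without 1 to 1.5 h replicate 2 or 2.5 to 3 h replicate 1 (adjusted p = 0.11 and 0.12).

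**Figure D5:**
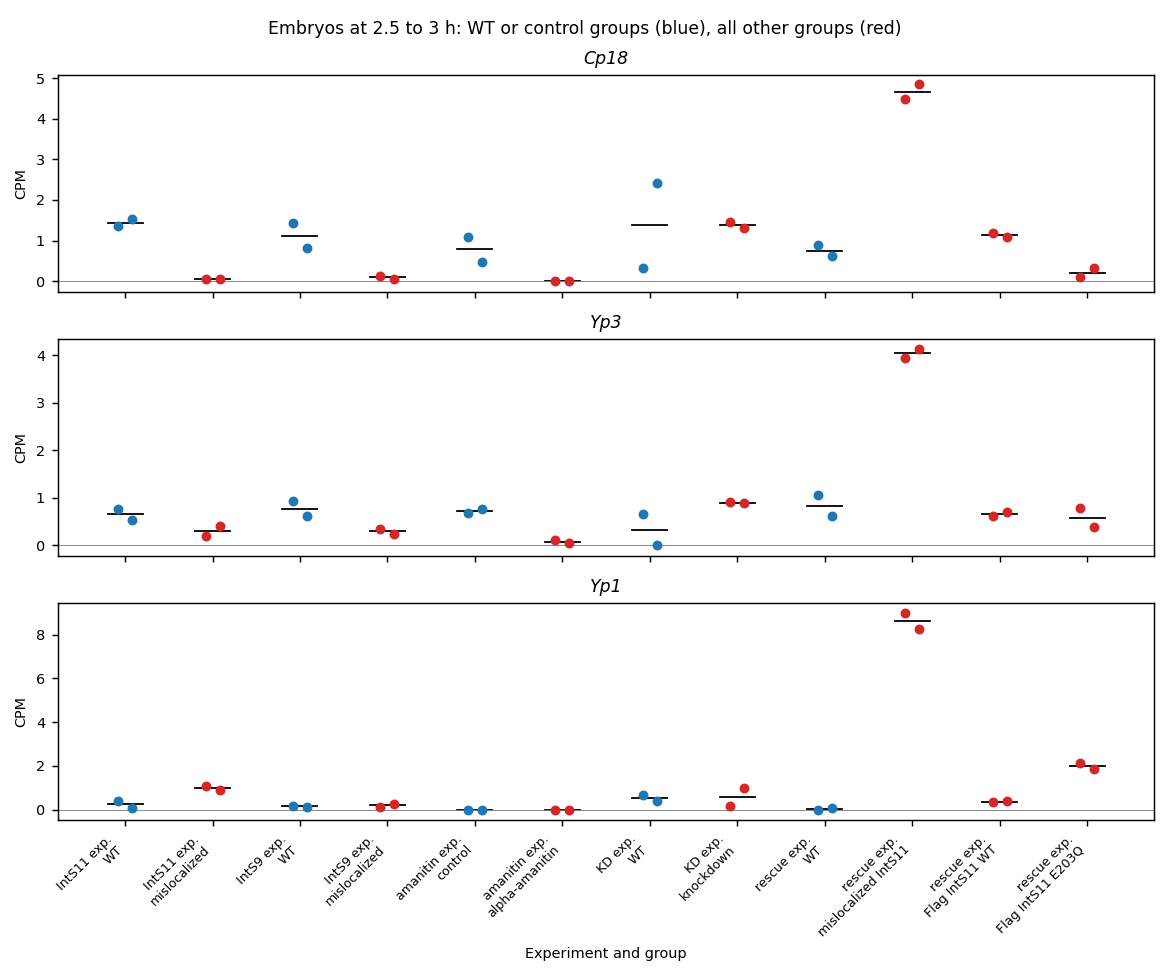
CPM of Cp18, Yp3 and Yp1 in each embryo library at 2.5 to 3 h, by experiment and group, with WT and control groups in blue, all other groups in red and a bar at each mean; each experiment is scaled separately. Cp18 lies between 0.478 and 1.54 CPM in the WT and control libraries outside the knockdown experiment and at or below 0.141 in the mislocalized and treated libraries of the first 3 experiments, and all 3 genes peak in the mislocalized group of the rescue experiment.

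Yp1 was called higher with IntS11 mislocalized at 2 of the 3 windows of the IntS11 experiment. At 2.5 to 3 h the mislocalized libraries had 17 and 15 reads and the WT libraries 4 and 1, 4.05-fold higher (log2 change 2.02 ± 0.63, adjusted p = 0.0082). Yp1 passed the filter only through this mislocalized group, so that call is in part set by the filter. Without the filter edgeR made it too (adjusted p = 0.0015). At 1 to 1.5 h there were 4 and 4 reads against 0 and 1, which was not called (adjusted p = 0.083, with 47.3% of all genes called). At 0 to 0.5 h there were 2 and 5 against none, at least 2.36-fold higher (adjusted p = 0.035, with 31.7% called). DESeq2 made neither of the 2 Yp1 calls, and the later one was lost without WT replicate 2 (adjusted p = 0.11). In each window of that experiment every mislocalized library was above every WT library, at 0 to 0.5 h and 1 to 1.5 h on single-digit reads. In the rescue experiment at 1 to 1.5 h the mislocalized embryos had 6 reads of Yp1 and the WT embryos 5, and their libraries overlapped (log2 change -0.045 ± 0.75, adjusted p = 0.98).

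With IntS9 mislocalized, the 0 to 0.5 h libraries differed from each other. Replicate 2 had 16 reads of Yp1, 24 of Yp2 and 29 of Yp3, and replicate 1 had 3, 5 and 8. The WT libraries had at most 5 of any of them. Yp3 was called higher, 4.64-fold (log2 change 2.21 ± 0.74, adjusted p = 0.020, with 52.6% of all genes called), and the call was lost without replicate 2 of the mutant or of WT (adjusted p = 0.39 and 0.13). Without the filter Yp1 and Yp2 were called too. At 1 to 1.5 h Yp3 had 4 and 18 reads against 5 and 3 in WT and Cp18 had 2 and 3 against none, and neither was called (adjusted p = 0.24 and 0.054, with 59.4% of all genes called; Cp18 alone had an unadjusted p under 0.05). DESeq2 made no call there either.

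In the knockdown experiment the WT libraries held between 2061575 and 2590455 counts and the KD libraries between 10415095 and 12468983. Cp15, the one gene tested, had 9 and 11 reads in KD and 4 and 2 in WT embryos at 0 to 0.5 h (log2 change 0.13 ± 0.72, adjusted p = 0.88, with 69.1% of all genes called and a median change of 0.25 over all genes). At 1 to 1.5 h it had 11 and 2 against none (adjusted p = 0.040, with 72.7% called), and at 2.5 to 3 h 10 and 10 against 9 and 6, 2.68-fold lower in KD (-1.42 ± 0.57, adjusted p = 0.031, with 75.7% called). In WT embryos it went from no reads at 1 to 1.5 h to 15 at 2.5 to 3 h, at least 5.48-fold higher (adjusted p = 0.00082, with 73.3% called). Once all libraries were thinned to the same depth Cp15 was below the filter and could not be tested. Without thinning it passed the filter only with all 3 KD groups included. Its KD calls at 1 to 1.5 h and 2.5 to 3 h were lost with DESeq2, and the former also with total counts. Cp36 with 18 and 5 and Cp38 with 16 and 14 reads in KD embryos at 0 to 0.5 h had none in WT, so that they were at least 2.53-fold and at least 3.30-fold higher; both were under the filter and called without it.

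Over the 36 group means, the genes most like the yolk protein sum were all eggshell genes: dec-1 (Pearson's r = 0.99 on log2(CPM + 1)), Vm34Ca (0.97), Vm26Ab (0.97), Cp7Fc (0.96) and Cp7Fb (0.96). For the sum of the 7 eggshell members they were dec-1 (0.96), Cp7Fb (0.95), Vm34Ca (0.95), CG4009 (0.94) and Vm26Ab (0.94). These correlations are a description over 36 groups that share libraries, scaling and, within experiments, controls, and they rest on the few groups in which the RNAs are plentiful. In 48 h mutant larvae dec-1 had 76.1 CPM and Vm26Ab 25.4, and in the mislocalized group of the rescue experiment 7.79 and 2.29.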

How the data were processed

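Strand-specific libraries were made from rRNA-depleted total RNA, per the labels' protocols. The authors deposited per-gene expected counts, TPM and FPKM; per the submitters' processing notes, the build was dm6 and the tools DESeq2 1.40.2, RSEM 1.3.1, STAR 2.7.10a and Trimmomatic 0.39. The sources used here do not say whether counting used strand. Deposited expected counts were rounded and tested with edgeR 4.0.16 in R 4.3.3 (quasi-likelihood, TMM, filterByExpr, 1 mean per group), separately in each experiment, with Benjamini-Hochberg adjustment over all genes tested and a threshold of 0.05. Deposited TPM served to compare genes, and deposited FPKM were not tested. Folds against 0 reads use a floor of 3 counts over the group; floors and intervals cover counting error only. The members and gene lists were chosen with earlier results of these data known. All 10 members were counted in every comparison, but not all are named in each. From other lists at most 6 called genes are named, as examples that were not picked by level. Scripts were tested on simulated data. Alternatives were RLE and total-count scaling, no filter, DESeq2 1.42.0, a replicate block, fits to the groups compared, each library left out, and, added after the values were seen, a fit without the rescue group that stood apart, thinned knockdown libraries, 5 interaction terms and a check of the groups through which each gene passed the filter. A gene listed as apolpp was matched as Rfabg.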

Additional observations from a re-analysis of the deposited data

Results flagged for a closer look

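In the larvae the difference between zygotic mutant and WT changed between 24 and 48 h AEL for 10 of the 10 genes (7.38% of all genes were called in that direction). The test was of the difference itself (edgeR interaction term). The difference changed again between 48 and 72 h for 4 of them (20.9% of all genes were called in that direction): Yp2 (-4.35 ± 1.45), Yp3 (-3.54 ± 0.45), Cp15 (-4.38 ± 0.80) and Cp18 (-4.41 ± 0.99 on the log2 scale). Both larval contrasts were chosen after the values were seen, so their counts restate the levels already described.

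In the rescue experiment the effect of mislocalized IntS11 differed between 1 to 1.5 h and 2.5 to 3 h for 10 of the 10 genes (29.9% of all genes were called in that direction), and for 6 without WT replicate 2 of 1 to 1.5 h. Of the 10 genes, 6 passed the filter only through the mislocalized group at 2.5 to 3 h. This contrast and the next were chosen after that group was seen, so their counts restate that the group was high. At 2.5 to 3 h the effect differed from that of mislocalized IntS11 in the IntS11 experiment for 4 of them (21.1% of all genes), for 8 with DESeq2 and for 2 without WT replicate 1 of the IntS11 experiment.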

How the results depend on the processing

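Numbers below are members called by edgeR, main value first. All 10 calls of each of the larval comparisons at 48 h, from 24 to 48 h and from 48 to 72 h, and of the 3 rescue comparisons with the mislocalized group at 2.5 to 3 h, held in every alternative in which they had a value; from 48 to 72 h Cp16 had none in the fit to the 2 groups alone. Over the 121 calls of a member in a comparison, 9 were lost with DESeq2, 2 with total counts, 2 without the filter, 0 with RLE and 0 with the replicate block, and 26 when some single library was left out; none changed sign. In the groups compared alone, 76 of the 121 could be tested and 0 were lost, so the lower counts given below for such fits come from members under the filter, and so do those for thinning. With IntS11 mislocalized, 1 at 0 to 0.5 h became 0 with DESeq2 and 0 in the groups compared alone (0 to 1 leaving out libraries), and 2 at 2.5 to 3 h became 1 with DESeq2 (1 to 2). With IntS9 mislocalized, 1 at 0 to 0.5 h became 3 without the filter and 0 in the groups alone (0 to 3), and without the filter 0 became 1 at 1 to 1.5 h and 1 became 3 at 2.5 to 3 h. In the knockdown, 0 at 0 to 0.5 h became 3 without the filter (0 to 1); 1 at 1 to 1.5 h became 4 without the filter and 0 with total counts, DESeq2, the groups alone or thinning (0 to 0); 1 at 2.5 to 3 h became 2 without the filter and 0 with DESeq2 or thinning (0 to 1). For alpha-amanitin at 2.5 to 3 h, 1 became 3 without the filter (0 to 2). In the rescue experiment at 1 to 1.5 h, mislocalized against WT went from 0 to 1 with RLE and 1 with total counts (0 to 1). There Flag IntS11 WT against mislocalized went from 1 to 2 without the filter and 0 with DESeq2 or the groups alone (0 to 1). E203Q against mislocalized went from 1 to 0 with total counts, no filter, DESeq2, the groups alone or without the later mislocalized group (0 to 1). Flag IntS11 WT against E203Q went from 3 to 1 with DESeq2 and 0 in the groups alone (1 to 2), and at 2.5 to 3 h from 5 to 3 in the groups alone and 3 without the mislocalized group (3 to 5). In larvae at 72 h, 2 became 1 with DESeq2 and 1 in the groups alone (0 to 1). Between 1 to 1.5 h and 2.5 to 3 h, WT of the IntS11 experiment went from 1 to 2 without the filter (1 to 2), and WT of the IntS9 experiment from 1 to 2 with RLE, no filter or the replicate block. WT of the knockdown experiment went from 1 to 3 without the filter and 0 in the groups alone or thinned (2 to 3), control embryos from 1 to 3 without the filter and 0 in the groups alone (0 to 2), and WT of the rescue experiment from 3 to 0 in the groups alone (2 to 6). The rescue interaction of 10 ranged from 6 to 10 leaving out libraries, and the 4 that differed between the rescue and IntS11 experiments became 8 with DESeq2 (2 to 4). The cause of the other changes was not tested. Over all genes, calls went from 1137 to 685 with DESeq2 in larvae at 24 h, from 2213 to 1136 and from 4180 to 2380 in the groups alone for Flag IntS11 WT at 1 to 1.5 h against mislocalized and against E203Q, and from 4000 to 2504 with DESeq2 for E203Q against mislocalized. The replicate block multiplied all-gene calls by 0.599 to 1.21; same-numbered libraries correlated between -0.438 and 0.553 in their deviations, so the samples are not shown to be paired. Outside the larvae and the one rescue group, single-digit reads limit every statement.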
